A study of Mus musculus with 6 samples.

Results

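Antioxidant and metallothionein genes were compared between pancreatic islets of diabetic db/db mice and db/m control mice by whole-transcriptome sequencing. The 10 genes were chosen by name: the metallothioneins Mt1 and Mt2, the glutathione peroxidase Gpx1, the mitochondrial superoxide dismutase Sod2, and Hmox1, Nqo1, Gclc, Gclm, Srxn1 and Txnrd1, which are targets of the transcription factor NRF2. All 10 were among the 44713 genes of the count table, and 9 of them passed the filter on low counts, which left 12760 genes for the test. Nqo1 did not pass it. The db/db mice carried the genotype Lepr-/- in the labels, a defect of the leptin receptor gene in every tissue, whereas the db/m mice were labelled wild type. The labels gave C57BL/6 as the strain of both groups, while the methods of the study named the BKS background and described the controls as non-diabetic littermates. All mice were 10-week-old males on a normal diet. Each group had 3 mice with 1 library each, made from rRNA-depleted total RNA of islets isolated with collagenase and a density gradient.

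Metallothioneins are small cysteine-rich proteins that bind zinc and copper and scavenge radicals. Their genes are switched on by the metal-sensing factor MTF1 and by glucocorticoids. NRF2, encoded by Nfe2l2, is held by KEAP1 and degraded in unstressed cells. Under oxidative stress it is released, pairs with small MAF proteins and drives genes for glutathione synthesis, thioredoxin recycling and quinone detoxification, while BACH1 competes for the same sites. β cells are known for low amounts of enzymes that remove hydrogen peroxide.

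Depth and cell makeup were examined first. The number of counted reads ran from 15641797 to 20614531 per mouse, and a floor of 3 counts corresponded to between 0.110 and 0.241 CPM (counts scaled to 1 common depth with TMM factors, which correct for libraries dominated by a few genes). Counts on 23 acinar genes, which encode digestive enzymes and other products of exocrine cells, took 66.7% to 72.9% of the library in db/db mice, compared with 51.3% to 64.7% in db/m mice. The other lists, for further endocrine, duct, stromal, endothelial and white blood cells, each made up at most 0.739% and held 0 genes at an adjusted p under 0.05. Counts on 12 β-cell genes made up between 0.152% and 0.649% in db/db mice and between 0.786% and 4.47% in db/m mice, so that the groups did not overlap for either list. No acinar gene was at 0 in any library, and of the β-cell genes Mafa alone was at 0, in db/db replicate 1. Although the labels name islet cells, most of the counted reads came from acinar genes in every library. Of the 12 β-cell genes 10 had reduced levels in db/db mice at an unadjusted p under 0.05, beside 9.89% of all tested genes. Of the 23 acinar genes 1 had a raised level at this threshold, beside 5.04% of all tested genes. The adjusted p was under 0.05 for 5 of the 12 β-cell genes and for 0 of the 23 acinar genes. The TMM factors ran from 0.605 in db/db replicate 1 to 1.75 in db/m replicate 1, and these libraries stood apart from the other 4. In bulk RNA of this kind, fewer cells of a type and less RNA per cell cannot be told apart.

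By edgeR's quasi-likelihood test 0 of the 9 tested genes passed an adjusted p of 0.05, a threshold that 0.619% of all tested genes passed, 0.133% with higher and 0.486% with lower levels in db/db islets. Mt1 and Mt2 had the largest estimates, about 3.45-fold and 3.91-fold higher in db/db islets, but their levels differed as widely between mice of the same group, and the groups overlapped. Without adjustment 2 of the 9, Mt1 and Mt2, were under 0.05, both with the higher estimate in db/db islets, while 14.9% of all tested genes were, 5.04% in this direction and 9.89% in the other. DESeq2 called these 2 genes at an adjusted p under 0.05, where it called 707 of the 12760 genes, against 79 with edgeR. With db/db replicate 3 left out, the unadjusted p of edgeR was 0.0619 for Mt1 and 0.0817 for Mt2. With db/m replicate 3 left out it was 0.0686 and 0.0648. It was also above 0.05 for Mt1 without db/db replicate 1 (0.0722) and for Mt2 without db/m replicate 1 (0.0522). Both genes were under 0.05 without db/db replicate 2 or db/m replicate 2. The median log2 fold change of the 9 genes was 0.21, against -0.00093 for all tested genes. Of the 9 estimates 7 were above 0, as were 49.9% of those of all tested genes. The levels did not overlap between the groups for 1 of the 10 genes, Nqo1, while they did not for 21.1% of all tested genes, 8.53% with higher and 12.6% with lower levels in db/db mice.

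**Figure D1:**
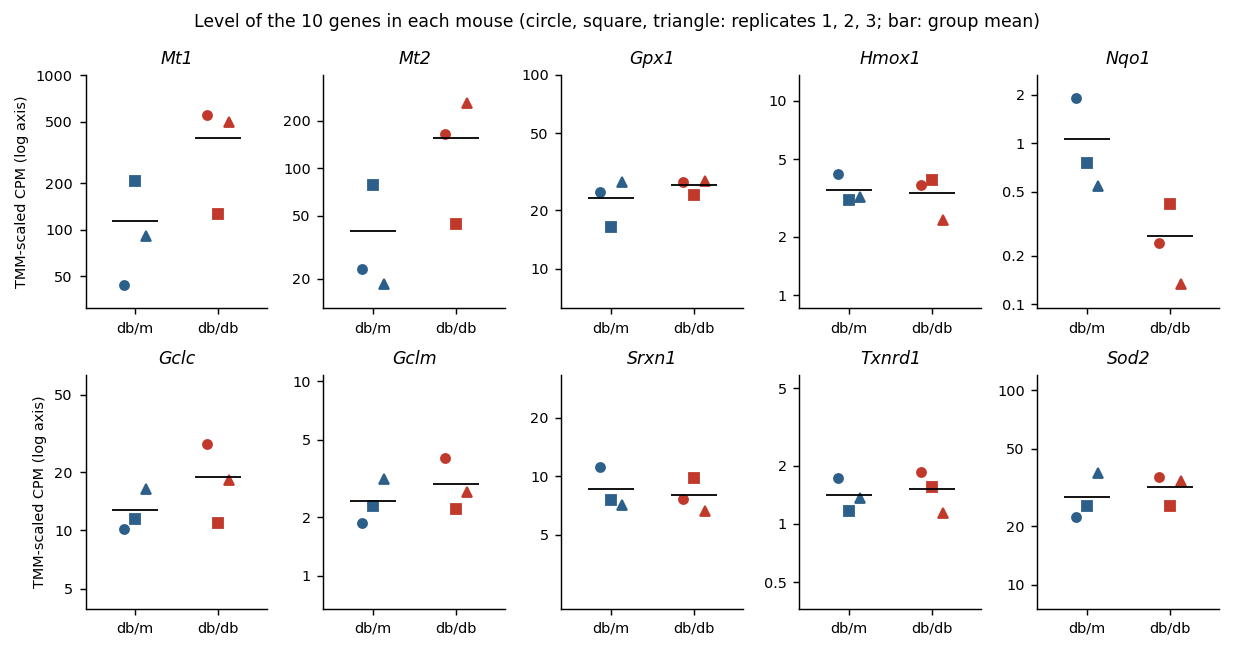
Level of each of the 10 genes in each mouse in TMM-scaled CPM on a log axis, with db/m mice in blue, db/db mice in red, and a bar at each group mean. Nqo1 is the gene whose groups do not overlap, and Mt1 spans 44.2 to 206 CPM in db/m mice and 126 to 553 CPM in db/db mice.

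Mt1 occupies bases 94179082 to 94180327 of chromosome 8 (GRCm38, forward strand), 5513 bases after the end of its neighbour Mt2, which lies from 94172664 to 94173568. Mt1 had 553, 126 and 500 CPM in the db/db mice and 44.2, 206 and 91.6 CPM in the db/m mice, in the order of the replicates. Replicates 1 and 3 of db/db were above all db/m mice, but db/db replicate 2 was below db/m replicate 2. The means were 393 ± 233 CPM for db/db and 114 ± 83.1 CPM for db/m mice (SD, n = 3 each). This gave a log2 fold change of 1.79 (SE 0.65, 95% interval 0.32 to 3.25, adjusted p = 0.246 from edgeR).

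Mt2 had 166, 44.7 and 259 CPM in the db/db mice and 23.1, 78.6 and 18.5 CPM in the db/m mice. The order was like that of Mt1, with db/db replicates 1 and 3 above the other 4 mice and db/m replicate 2 above db/db replicate 2. The means were 157 ± 107 CPM for db/db and 40.0 ± 33.4 CPM for db/m mice (SD, n = 3 each). Here the log2 fold change was 1.97 (SE 0.70, 95% interval 0.40 to 3.54, adjusted p = 0.234 from edgeR). An antisense gene, Gm45774, overlaps Mt2, and 45.8% of the 50-base stretches of Mt2 transcripts occur in it. The use of strand in counting is not given in the sources used here, so that reads of the pair could not be separated.

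**Figure D2:**
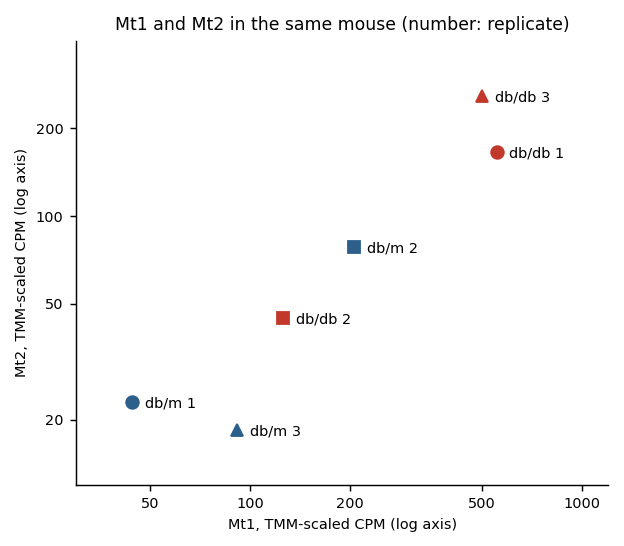
Mt1 (horizontal) against Mt2 (vertical) in each of the 6 mice in TMM-scaled CPM, both on log axes, with db/m in blue and db/db in red. Replicates 1 and 3 of db/db have the highest levels of both genes, at 553 and 500 CPM for Mt1, and db/m replicate 2 lies above db/db replicate 2.

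The spread between mice was wide for the metallothioneins. Within groups the SD of log2(CPM + 1) was 1.14 for Mt1 and 1.204 for Mt2, larger than that of 99.4% and 99.5% of all tested genes. For Gpx1, Hmox1, Gclc, Gclm, Srxn1, Txnrd1 and Sod2 between 14% and 80.2% of the tested genes had a smaller SD. The highest Mt1 level was 4.40 times the lowest among db/db mice and 4.66 times the lowest among db/m mice. For Nqo1, at far lower counts, these ratios were 3.11 and 3.53, and for the other 7 genes they ran from 1.19 (Gpx1) to 2.54 (Gclc) in db/db mice and from 1.36 (Hmox1) to 1.72 (Gpx1) in db/m mice. The ratio of Mt1 to Mt2 counts, which no scaling of the libraries can alter, was 3.33, 2.82 and 1.93 for db/db replicates 1, 2 and 3, against 1.92, 2.62 and 4.96 for db/m, so that the groups overlapped in this ratio as well.

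The calls of Mt1 and Mt2 depended on the model and the filter, and their estimates changed when the acinar score was added. The adjusted p of DESeq2, which called 707 of 12760 genes, was 0.0421 for Mt1 and 0.0348 for Mt2. Without the filter on low counts, the adjusted p of edgeR was 0.00353 for Mt1 and 0.000551 for Mt2. In that fit 888 of 23506 genes were called, against 79 of 12760 with the filter. With a covariate for the acinar marker score, the log2 fold change was 0.72 for Mt1 (adjusted p = 0.740 from edgeR) and 1.41 for Mt2 (adjusted p = 0.602). The acinar share of the reads did not overlap between the groups, so that this fit cannot tell group and acinar content apart. The same holds for all later values with this covariate. Over all 14 alternatives both estimates stayed above 0, from 0.72 to 2.57 for Mt1 and from 1.41 to 2.94 for Mt2. The highest values were those without db/m replicate 2, where the log2 fold change was 2.57 for Mt1 and 2.94 for Mt2.

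MTF1 binds short elements in the promoters of metallothionein genes. Matches to the core of these elements were sought, and binding by MTF1 was not measured. The RefSeq promoters of GRCm38.p6, from 250 bases before to 50 bases after the transcription start, were searched on both strands for TGCACNC and TGCGCNC, the core of the metal response element. Of 32851 promoters 25.7% held at least 1 match, 1.97% at least 3 and 0.517% at least 4. The Mt1 promoter held 3 matches and that of Mt2 held 4. That of Gclm held 3 and that of Srxn1 held 1, while the promoters of Gpx1, Nqo1, Txnrd1 and Sod2 held none. The match before the start of Mt1 ran from position -23 to -17, and another ran from 21 to 27. Those printed for Mt2 ran from -223 to -217 and from -128 to -122. Each window of 30 bases below is given 5′ to 3′ on the forward strand, with the match in capitals.
Mt1 (chr8:94179054-94179083): gcggtcccgctgTGCACACtggcgctccag
Mt1 (chr8:94179097-94179126): ccgcccgaaaagTGCGCTCggctctgccaa
Mt2 (chr8:94172383-94172412): cagcatcgcctcTGCACCCggcccctcggg
Mt2 (chr8:94172478-94172507): tcgcagacccttTGCGCTCagctcctttgc

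The same promoters were searched for TGACNNNGC, the core of the antioxidant response element that NRF2 and the small MAF proteins bind, which 12.4% of all promoters held. Single matches were found for Mt2, Gclm and Srxn1 and in 1 of the 3 Txnrd1 promoters. The match of Mt2 ran from -79 to -71 on the forward strand, that of Gclm from -134 to -126 and that of Txnrd1 from -92 to -84, both on the reverse strand, where the capitals show the reverse complement of the core. That of Gclm overlaps a match of the metal response core. The windows are shown because the same core occurs in a metallothionein and in NRF2 targets. A match is a stretch of letters and no measured binding site. Bases further from the start were not searched, so that a promoter without a match may have the core elsewhere.
Mt2 (chr8:94172528-94172557): gaaagggggtgTGACTCAGCgcggggggtg
Gclm (chr3:122245412-122245441): cgctcccgggcGCACCGTCAactctcacga
Txnrd1 (chr10:82859103-82859132): actggatttttGCTTTGTCAttctgacacg

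**Figure D3:**
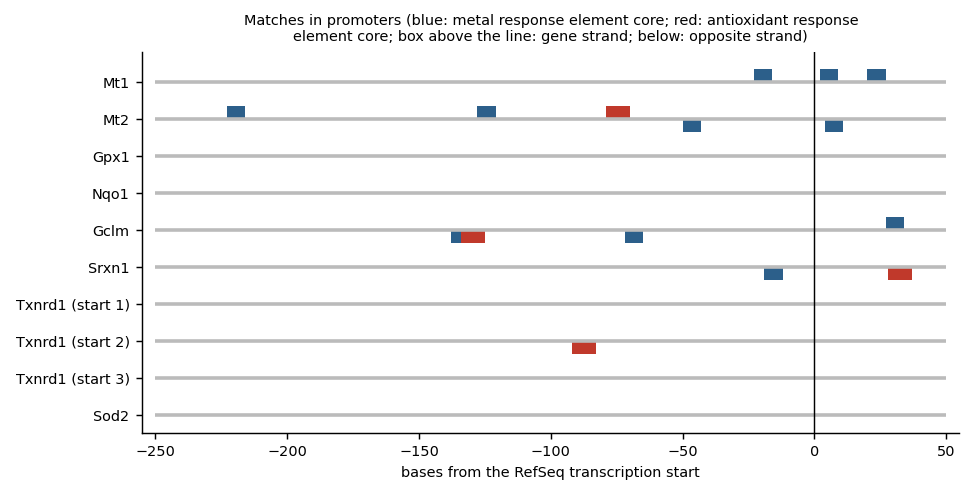
Positions of matches to the metal response element core (blue) and the antioxidant response element core (red) in 10 promoters of 8 of the genes, in bases from the RefSeq transcription start, with boxes above the line on the strand of the gene and boxes below on the opposite strand. Mt1 has 3 and Mt2 has 4 metal response matches, and Gpx1, Nqo1 and Sod2 have no match to either core in the bases searched.

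Gpx1 reduces hydrogen peroxide with glutathione and lies on chromosome 9 from 108338903 to 108340343. It had 28.2, 24.0 and 28.5 CPM in the db/db mice and 25.03, 16.4 and 28.2 CPM in the db/m mice. The db/db values lay within or just above the range of the db/m mice. The mean was 26.9 ± 2.49 CPM (SD, n = 3) against 23.2 ± 6.11 (SD, n = 3), and the 95% interval of the log2 fold change, -0.36 to 0.79, allowed a change of 1.73-fold upward or to 0.778 of the control level.

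Sod2 converts superoxide to hydrogen peroxide in mitochondria and lies on chromosome 17 from 13006846 to 13040063. It had 35.7, 25.3 and 34.4 CPM in the db/db mice and 22.4, 25.3 and 37.4 CPM in the db/m mice. The highest and the lowest of the 6 values were both from db/m mice. The 95% interval of its log2 fold change was -0.44 to 0.77. Of the 50-base stretches of its annotated transcripts 21% also occur in other genes.

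Gclc and Gclm encode the catalytic and the modifier subunit of glutamate-cysteine ligase, which makes the first step of glutathione synthesis. Gclc, on chromosome 9 from 77754535 to 77794485, had 27.8, 10.9 and 18.2 CPM in the db/db mice and 10.2, 11.5 and 16.4 CPM in the db/m mice. Replicates 1 and 3 of db/db were above all db/m mice, and db/db replicate 2 was not. Its log2 fold change of 0.58 (95% interval -0.21 to 1.37, adjusted p = 0.477 from edgeR) was 0.20 without db/db replicate 1, and 0.0014 with a covariate for the acinar marker score. Gclm, on chromosome 3 from 122245557 to 122270732, had 4.01, 2.21 and 2.69 CPM in the db/db mice and 1.87, 2.27 and 3.14 CPM in the db/m mice. The groups overlapped, and the 95% interval of its log2 fold change was -0.61 to 1.19. The ratio of Gclc to Gclm counts was 6.92, 4.95 and 6.75 for db/db replicates 1, 2 and 3, against 5.45, 5.05 and 5.21 for db/m, again with overlap.

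Srxn1 encodes sulfiredoxin, which restores overoxidized peroxiredoxins. On chromosome 2 from 152105516 to 152111376, it had 7.63, 9.81 and 6.59 CPM in the db/db mice and 11.2, 7.57 and 7.15 CPM in the db/m mice. The highest value was that of db/m replicate 1, the library richest in β-cell reads, and without it the log2 fold change moved from -0.11 to 0.15. It was 0.022 without db/db replicate 3. Txnrd1 encodes the cytosolic thioredoxin reductase, a selenoprotein, and lies on chromosome 10 from 82833951 to 82897712. It was counted at 17 to 26 reads per db/db mouse and at 20 to 47 reads per db/m mouse. Its levels were 1.85, 1.55 and 1.14 CPM against 1.73, 1.16 and 1.35 CPM, with the groups interleaved. Its 95% interval, -0.92 to 1.10 on the log2 scale, was the widest of the 7 genes other than the metallothioneins.

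Hmox1 encodes heme oxygenase 1, which breaks heme down to biliverdin, iron and carbon monoxide. On chromosome 8 from 75093621 to 75100589, it had 3.69, 3.89 and 2.42 CPM in the db/db mice and 4.18, 3.09 and 3.19 CPM in the db/m mice. The groups overlapped, and the log2 fold change was -0.07 (95% interval -0.83 to 0.70).

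Nqo1, a quinone reductase often used as a readout of NRF2, had too few reads to pass the filter. It lies on chromosome 8 from 107388225 to 107403206 on the reverse strand. Its reads numbered 3, 7 and 2 for the db/db mice, against 52, 13 and 10 for the db/m mice. These were 0.241, 0.419 and 0.135 CPM against 1.91, 0.757 and 0.541 CPM, so that every db/db mouse was below every db/m mouse. With 3 and 2 reads, db/db replicates 1 and 3 were at and below the floor of 3 counts. The two-sided exact permutation test gave p = 0.1, the smallest that 3 mice against 3 allow. Summed over mice, the level in db/m islets was 4.38 times that in db/db islets (exact 95% interval 2.37 to 8.85, for counting error alone). Without db/m replicate 1 it was 2.37 times (1.13 to 5.22). With a filter of at least 10 counts in at least 3 mice, which Nqo1 passed through the db/m mice alone, the log2 fold change was -1.99 (adjusted p = 0.253 from edgeR), a value conditioned on the group where Nqo1 was high.

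**Figure D4:**
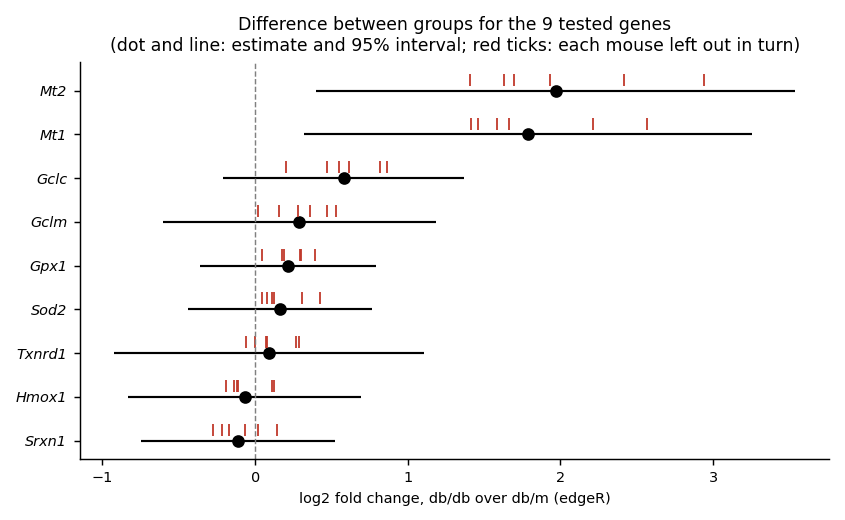
Log2 fold change of db/db over db/m for the 9 tested genes from edgeR, with dots for estimates, black lines for 95% intervals and red ticks for the estimates when single mice were left out. The intervals of Mt1 (0.32 to 3.25) and Mt2 (0.40 to 3.54) lie above 0 without adjustment for the number of genes, and the other 7 cross it.

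Divided by the length of their annotated exons, the levels of the genes fell into the same broad order in both groups. In db/db mice Mt1 had 315 ± 187 and Mt2 had 266 ± 183 CPM per kb (SD, n = 3), and these overlapped. Gpx1 followed with 18.7 ± 1.73 CPM per kb, below every value of the metallothioneins and above every value of the genes after it. Gclc had 5.03 ± 2.24, Sod2 3.18 ± 0.567 and Srxn1 2.84 ± 0.582 CPM per kb, which overlapped, and Hmox1 had 1.90 ± 0.455. The lowest were Gclm with 0.472 ± 0.148, Txnrd1 with 0.214 ± 0.0499 and Nqo1 with 0.170 ± 0.0924 CPM per kb, of which the last 2 overlapped. In db/m mice Mt1 had 91.4 ± 66.7, Mt2 68.1 ± 56.9 and Gpx1 16.1 ± 4.24 CPM per kb. The lowest there was Txnrd1 with 0.200 ± 0.0402 CPM per kb, after Nqo1 with 0.688 ± 0.473 and Gclm with 0.386 ± 0.103, which overlapped. Exons were summed over all annotated transcripts, so that levels per kb are low estimates where these cover more than the main transcript. The sums were 10008 bases for Sod2, 7086 for Txnrd1 and 6291 for Gclm. For Mt1 (1246 bases) and Gpx1 (1441 bases) the exons cover the whole span of the gene. The order per kb depends on these lengths.

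The genes most like 3 of the members were sought by the root mean square difference of centred log2(CPM + 1) over the 6 mice, among the tested genes with at least 5 CPM (7349 for Mt1 and Gpx1, 7350 for Nqo1). For Mt1 they were Gsta3, a glutathione S-transferase (0.449), Lcat, a plasma cholesterol esterifying enzyme (0.453), and Mt2 itself (0.460). For Gpx1 they were Hax1 (0.0466), Lims1 (0.0499) and the peroxiredoxin Prdx5 (0.0524), which all had their lowest level in db/m replicate 2, as Gpx1 did. For Nqo1 they were Prkar1a (0.0678), Sqle (0.0945) and Fam120aos (0.0952), which like Nqo1 were highest in db/m replicate 1. Small differences are easy to reach for genes of low level or low spread, and the values describe these 6 libraries alone.

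The genes that control or accompany the members were described from 9 lists with 142 distinct tested genes apart from the members. At an unadjusted p under 0.05, 13 of them had higher and 14 had lower levels in the db/db mice. Of all tested genes 5.04% were higher and 9.89% lower at this threshold, 14.9% in either direction. At an adjusted p under 0.05 in edgeR there were 2, Slc30a8 and Dusp1, which were both lower. Of all tested genes 0.619% passed this threshold, 0.486% with lower levels. The median log2 fold change of the 142 genes was 0.14. With library size in place of TMM scaling, the median of all tested genes moved to -0.59, and the estimates of Gpx1, Gclc, Gclm, Txnrd1 and Sod2 turned below 0. Relative to that median they were 0.19, 0.54, 0.29, 0.0060 and 0.20.

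The regulators of NRF2 targets included 11 tested genes. At an unadjusted p under 0.05, 0 were higher (5.04% of all tested genes) and 1 was lower (9.89%). Nfe2l2 had 22.6, 9.09 and 13.9 CPM in the db/db mice and 7.52, 12.5 and 12.7 CPM in the db/m mice, and Keap1 had 11.6, 13.9 and 15.9 against 17.3, 14.5 and 16.5 CPM. Both overlapped between the groups (adjusted p = 0.563 and 0.666 from edgeR). Bach1 had a log2 fold change of -0.35 (adjusted p = 0.520 from edgeR). The gene lower at an unadjusted p was Mafk, a small MAF partner. Mafk had 8.19, 10.2 and 12.8 CPM in the db/db mice and 17.5, 21.1 and 15.3 CPM in the db/m mice. Its groups did not overlap, as for 12.6% of all tested genes in this direction. Its log2 fold change was -0.79 (SE 0.25, adjusted p = 0.189 from edgeR). The other small MAF genes had log2 fold changes of -1.22 for Maff and -0.55 for Mafg (adjusted p = 0.352 and 0.462 from edgeR), and both overlapped between the groups.

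Among 31 other NRF2 target genes 4 were higher and 0 lower at an unadjusted p under 0.05, beside 5.04% and 9.89% of all tested genes, with a median log2 fold change of 0.26. Abcc3, an exporter of glucuronide and glutathione conjugates, had 7.63, 7.18 and 7.60 CPM in the db/db mice and 2.90, 3.67 and 3.41 CPM in the db/m mice. The values within each group lay close together and the groups were apart, as for 8.53% of all tested genes in this direction. The log2 fold change of Abcc3 was 1.17 (SE 0.26, adjusted p = 0.0874 from edgeR, and 0.00506 from DESeq2). Aldh1a1, a retinaldehyde dehydrogenase, had 27.3, 26.4 and 36.2 against 9.29, 12.99 and 21.6 CPM (log2 fold change 1.04, adjusted p = 0.181 from edgeR). The others were the biliverdin reductase Blvrb (1.27) and Gsta3 (1.37), the latter chosen after its values were seen. Gsta3 had 21.5, 10.1 and 26.6 CPM in the db/db mice and 2.24, 11.6 and 8.77 CPM in the db/m mice, and db/db replicate 2 and db/m replicate 2 crossed, as they did for Mt1.

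Genes for glutathione synthesis and use included 25 tested genes, of which 19 had an estimate above 0, beside 49.9% of all tested genes, and the median log2 fold change was 0.45. At an unadjusted p under 0.05 there were 5 higher (5.04% of all tested genes) and 0 lower (9.89%). They were the glutathione transferases Gsto1, Gstt2, Mgst3, and, chosen after their values were seen, Gstt3 and Gstt1. Gsto1 had 41.1, 40.3 and 39.3 CPM in the db/db mice and 10.7, 19.0 and 28.05 CPM in the db/m mice, with a log2 fold change of 1.07 (SE 0.33, adjusted p = 0.178 from edgeR, and 0.0433 from DESeq2). Gstt2 had 11.6, 6.94 and 8.47 against 3.63, 4.43 and 6.06 CPM. Mgst3 had 4.74, 3.89 and 4.30 against 2.13, 1.86 and 2.98 CPM. The transferases Gstz1 (-0.18), Gstk1 (0.33) and Mgst1 (0.86), likewise chosen afterwards, were not under 0.05. The groups did not overlap for the 5 genes, as for 8.53% of all tested genes in this direction. With a covariate for the acinar marker score the log2 fold change was 0.62 for Gsto1, 0.49 for Gstt2 and 0.70 for Mgst3. With library size alone it was 0.61, 0.35 and 0.31, where the median of all tested genes was -0.59.

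Thioredoxins, peroxiredoxins and their partners included 18 tested genes. At an unadjusted p under 0.05, 2 were higher (5.04% of all tested genes) and 1 was lower (9.89%). The methionine sulfoxide reductase Msrb1 (log2 fold change 0.84) and the mitochondrial thioredoxin Txn2 (0.70) were higher, and the sestrin Sesn3 (-1.15) was lower. Msrb1 had 145, 114 and 113 CPM in the db/db mice and 44.2, 77.5 and 86.3 CPM in the db/m mice (adjusted p = 0.238 from edgeR). Its groups did not overlap, as for 8.53% of all tested genes in this direction. Of 8 genes for the removal of superoxide and peroxide, none was at an unadjusted p under 0.05, beside 14.9% of all tested genes. Those with the smallest p were Gpx4 (log2 fold change 0.49), the mitochondrial peroxiredoxin Prdx3 (0.55) and catalase, Cat (0.52) (adjusted p = 0.352, 0.408 and 0.594 from edgeR). Genes for selenoproteins and their synthesis included 23 tested genes. At an unadjusted p under 0.05, 2 were higher (5.04% of all tested genes) and 2 lower (9.89%). They were Msrb1 and Selo (0.61) on one side and Selk (-0.57) and Scly (-0.95) on the other, Scly being chosen after its values were seen.

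Genes for the handling of zinc, copper and heme iron included 25 tested genes. At an unadjusted p under 0.05, 1 was higher (5.04% of all tested genes) and 4 were lower (9.89%). Slc30a8, the zinc transporter of insulin granules and a β-cell marker, had 2.09, 9.57 and 7.94 CPM in the db/db mice and 252, 117 and 75.4 CPM in the db/m mice. All db/db mice were far below all db/m mice, and the log2 fold change was -4.49 (SE 0.64, adjusted p = 0.0246 from edgeR). The call was lost with library size alone (adjusted p = 0.0915) and when db/db replicate 1, 2 or 3 or db/m replicate 2 was left out (adjusted p from 0.0587 to 0.119), while the log2 fold change lay between -5.15 and -4.07 in these settings. It moved with the 12 β-cell genes described above, of which it is one. The higher gene was Blvrb. The other lower genes, chosen after their values were seen, were the copper pump Atp7a (-1.002), the transferrin receptor Tfrc (-0.75) and the iron exporter Slc40a1 (-0.89). Mtf1, the metal-sensing activator of the metallothioneins, had 13.2, 6.10 and 10.9 CPM in the db/db mice and 11.2, 14.1 and 14.9 CPM in the db/m mice, with overlap (log2 fold change -0.41, adjusted p = 0.558 from edgeR).

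**Figure D5:**
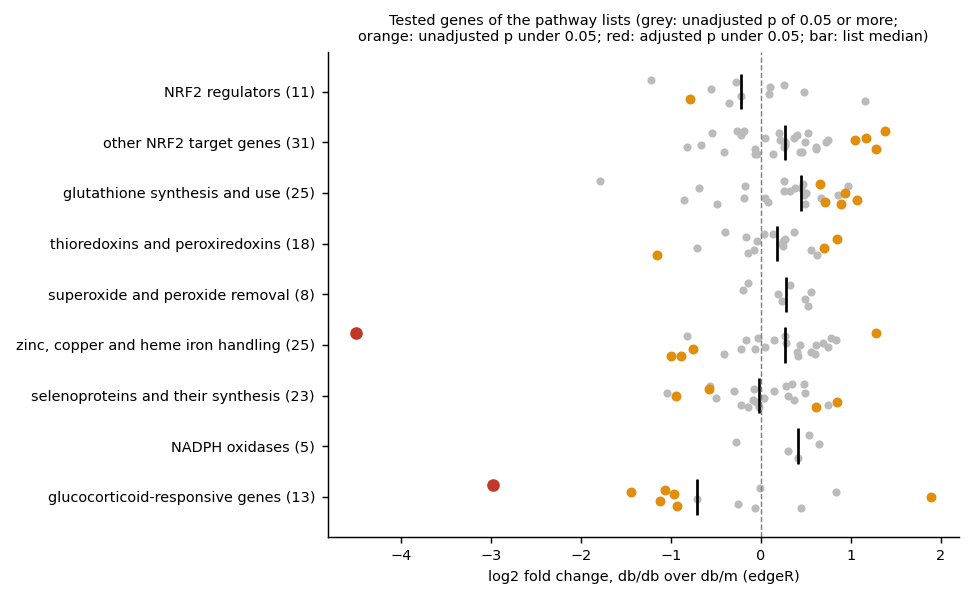
Log2 fold change of db/db over db/m for the tested genes of the 9 lists, 1 dot per gene, with the number tested in brackets and a bar at each list median. The red dots at an adjusted p under 0.05 are Slc30a8 at -4.49 and Dusp1 at -2.97, orange dots had an unadjusted p under 0.05, and the list medians lie between -0.71 and 0.45.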

How the data were processed

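Islet RNA of 3 db/db and 3 db/m mice was sequenced after rRNA removal. The authors removed reads with adaptors or of low quality, mapped the rest to mm10 and deposited raw counts per gene symbol with 1 column per mouse. The study's methods name TopHat, whereas the submitters' processing notes name HISAT2 2.0.4. The counting program, annotation and use of strand are not given in the sources used here.

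The test was that of edgeR 4.0.16 in R 4.3.3 (filterByExpr, TMM factors, quasi-likelihood F-test, Benjamini-Hochberg adjustment over 12760 genes, threshold 0.05). Standard errors were taken as the log2 fold change over the square root of F. P-values set the group difference against the spread between these mice, which was estimated in part from all tested genes. The genes and lists were chosen with earlier results of these data known. Genes named from the lists were those with an adjusted p under 0.05 or else the 3 with the smallest p, besides Nfe2l2, Keap1, Bach1 and Mtf1. No set test was run. Gene positions and exon lengths came from GENCODE M21 (GRCm38), and promoters from RefSeq (GRCm38.p6), where 8 of the 10 genes matched; Gclc and Hmox1 did not. Figures were drawn with matplotlib 3.10.9 in Python 3.11.15.

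Alternatives were DESeq2 1.42.0, other scalings and filters, a replicate block, the acinar marker score (mean log2(CPM + 1) of 23 genes) as a covariate, and leaving out each mouse. Between mice of 1 group the chi-square of the counts over its degrees of freedom was 26.5 to 147, and no pair of libraries was within counting noise. Data of this comparison were simulated for 12760 genes, of which 200 were changed by 3 on the log2 scale and 12382 passed the filter again. In these data edgeR recovered 177 with 15 false calls, and DESeq2 recovered 182 with 39 false calls. The counts were drawn gene by gene, without a simulated shift in cell makeup.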

Additional observations from a re-analysis of the deposited data

How the results depend on the processing

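The tested members kept an adjusted p of 0.05 or more in 12 of 14 alternatives. The exceptions were DESeq2 and the test of every gene with at least 1 count, which each called 2 members, Mt1 and Mt2. The members that did not overlap between groups numbered 1 under all 4 other scalings. All called genes, 79, numbered 707 with DESeq2, 21 with library size alone, 52 with upper-quartile factors, 888 with every gene tested and 16 with the replicate block, and 10 (without db/db replicate 2) to 333 (without db/m replicate 3) with each mouse left out, each time by over 1.5 times from 79. Called genes of the lists, 2, numbered 7, 1, 2, 10 and 0 in these settings, and 0 to 5 with each mouse left out. The split of all called genes was 17 higher and 62 lower, against 149 and 739 with every gene tested, and 43 and 290 without db/m replicate 3.

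With library size alone the log2 fold change was -0.40 for Gpx1, -0.051 for Gclc, -0.30 for Gclm, -0.58 for Txnrd1, -0.39 for Sod2, -0.12 for Gpx4, -0.021 for Prdx3, -0.023 for Cat, -0.023 for Selo, -0.15 for Cyba, -0.16 for Noxo1, -0.24 for Rac2 and -0.13 for Nfe2l2, where the median of all genes was -0.59. With the acinar score as a covariate it was 0.11 for Hmox1, -0.20 for Gclm, 0.25 for Srxn1, -0.17 for Sod2, -0.21 for Cat and -0.20 for Nfe2l2. With each mouse left out it lay between -0.19 and 0.13 for Hmox1, -0.28 and 0.15 for Srxn1, -0.062 and 0.29 for Txnrd1, and -0.25 and 4.14 for Rac2, which was at 0 in db/m replicate 3. The cause of these changes was not tested.

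Mice of the same replicate number did not deviate alike. Their deviations from the group means had correlations of -0.527, -0.195 and -0.323 for numbers 1, 2 and 3. With so few mice these values cannot decide whether mice of the same number were handled together. With the replicate block the log2 fold change was 1.91 for Mt1 and 2.12 for Mt2 (adjusted p = 0.583 and 0.570 from edgeR), and Slc30a8 (adjusted p = 0.110) and Dusp1 (0.0940) lost their calls. The self-test recovered 177 of 200 genes changed by 3 on the log2 scale. Smaller changes were not simulated. Nqo1, with 2 to 52 reads per mouse, was limited by depth.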

Other observations

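Genes that respond to glucocorticoids, which also act on metallothionein promoters, were described from 13 tested genes. Of these 3 had an estimate above 0, beside 49.9% of all tested genes, and the median log2 fold change was -0.71. At an unadjusted p under 0.05, 6 were lower (9.89% of all tested genes) and 1 was higher (5.04%). The lower genes were Dusp1 and, chosen after their values were seen, Per1 (-1.07), Ddit4 (-1.12), Nfkbia (-0.94), Errfi1 (-0.97) and Cebpd (-1.44). The glucocorticoid targets Klf9 (-0.014), Tsc22d3 (-0.066), Fkbp5 (-0.25) and Zbtb16 (0.83) were not among them, and were likewise chosen after their values were seen. Dusp1, a MAP kinase phosphatase that is also an immediate-early gene, had 6.82, 4.13 and 8.003 CPM in the db/db mice and 53.9, 66.2 and 28.5 CPM in the db/m mice. No db/db mouse reached a db/m mouse, and edgeR gave a log2 fold change of -2.97 (SE 0.38, adjusted p = 0.0157). The adjusted p was 0.0730 to 0.0918 when a db/db mouse was left out. The higher gene, Lcn2, which encodes the iron-binding lipocalin 2, had 2.57, 2.93 and 2.69 CPM in the db/db mice and 0.587, 0.874 and 0.758 CPM in the db/m mice (log2 fold change 1.88, adjusted p = 0.0902 from edgeR), and was chosen after its values were seen.

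NADPH oxidases and their partners, which produce superoxide and hydrogen peroxide, passed the filter for 5 of 15 genes. None of these had an unadjusted p under 0.05, beside 14.9% of all tested genes. Cyba had 2.17, 2.27 and 2.82 CPM in the db/db mice and 1.65, 2.27 and 1.57 CPM in the db/m mice. Noxo1 and Rac2 had log2 fold changes of 0.53 and 0.64, with overlapping groups.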
